A study of Danio rerio with 12 samples.

Results

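Growth cones are the motile tips of growing axons, and 7 genes that encode growth cone proteins were followed in the zebrafish eye after injury of the optic nerve. The genes were gap43, marcksb, marcksl1b, stmn2a, dpysl3, dpysl5b and tmsb, found by their annotated symbols among 8793 genes with a probe set of 1 symbol on the array. They were chosen with earlier results of these data known, so their ranks among all probe sets are a description. Each had 1 probe set, and all 7 were among the 9301 probe sets tested.

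Whole eyes of adult male wild type zebrafish were taken on days 4, 12 and 21 after surgery. In the crushed group (ONX) the left eye had been drawn from its orbit, the optic nerve crushed with forceps and the eye put back. In the sham group (SHAM) the right eye of the same fish had been drawn out and put back with its nerve intact. Every sample pooled 5 eyes, with retina, lens, vitreous and the anterior and posterior segments, and each of the 6 groups had 2 pools on 1 Affymetrix array each, 12 arrays in all. The labels call the pools biological replicates and do not say how they were numbered. The sham eye thus shares its fish with a crushed eye.

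In fish, retinal ganglion cells survive the cutting of their axons, regrow them through the optic nerve and reconnect to the brain. A growing axon inserts membrane at its tip, where gap43 and the MARCKS proteins, lipid-anchored substrates of protein kinase C, link the membrane to the actin cytoskeleton. Stathmins and collapsin response mediator proteins (CRMPs) act on microtubules and tubulin, and beta thymosins bind actin monomers.

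Signals are given as log2 of the deposited signal plus 16, differences are ONX minus SHAM on that log2 scale, and errors are standard errors of the limma fit over all 12 arrays unless SD is written. Adding 16 understates the change of dim genes. The Benjamini-Hochberg adjustment of p ran over the 9301 probe sets of a comparison, and a gene is said to rise or fall only where its adjusted p is under 0.05. Levels of different probe sets cannot be compared, since each has its own brightness.

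All arrays had a 2% trimmed mean signal of 500.1. The library labelled ONX day 4 pool 1 stood apart, with Spearman correlations of 0.717 to 0.810 to the others. All 10 of the 18 listed oocyte genes that the array held, which encode egg coat and oocyte proteins, read 9.81 to 14.5 on it, against at most 7.63 on any other array, although the labels give adult males. The summed oocyte signal was 256 to 76072 in ONX pools of day 4 and 219 to 808 in all other groups, and no signal was at 0. The 808 was that of SHAM day 4 pool 2, where the egg coat genes zp2.6, zp3.1 and zp3a.1 read 7.63, 7.56 and 7.01. On the remaining arrays, ONX day 4 pool 1 aside, they read at most 5.12, 5.91 and 5.27. The other oocyte genes did not stand out on SHAM day 4 pool 2. At day 12 the libraries labelled ONX pool 1 and SHAM pool 1 read opposite to the day 4 pattern of their labels for 4 of the 7 genes, as given below, and comparisons are therefore also given without them and, in turn, without the pool 2 libraries of that day. Rod and cone genes (13 of 18 on the array), lens genes (4 of 12) and eye muscle genes (12 of 12) were read on all arrays.

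At day 4 only marcksb among the 7 growth cone genes passed the test. The gap43, tmsb and marcksb signals were 22.1-fold, 18.7-fold and 6.96-fold as high in ONX as in SHAM eyes, stmn2a was 1.69-fold as high, and marcksl1b, dpysl5b and dpysl3 had lower means in ONX eyes, the last of which was higher when arrays were scaled by hybridisation controls (0.36) or by poly-A controls (0.28). Without the pool that held oocyte transcripts the differences of gap43 and tmsb were as large (4.53 and 4.49 on the log2 scale), and that of dpysl3 was 0.13. This makes 1 of 7 genes called, where limma called 17% of all tested probe sets (492 higher and 1090 lower, or 5.29% and 11.7%). Both ONX pools lay above both SHAM pools for 4 genes, as for 24.1% of all probe sets, and below both for 2 genes, as for 36.1%. The errors behind these tests take in the spread within all 6 groups, which for 4 of the 7 genes was far wider at day 12 than at day 4. Scaling to the hybridisation controls moved the median of all probe sets by 0.46 at day 4, with which 1937 probe sets passed as higher and 447 as lower, gap43 passed too (4.93, limma adjusted p = 0.0457) and marcksl1b was at -0.06 and dpysl5b at -0.44. In whole eyes, a change in RNA per cell and a change in the number of cells of a type cannot be told apart.

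**Figure D1:**
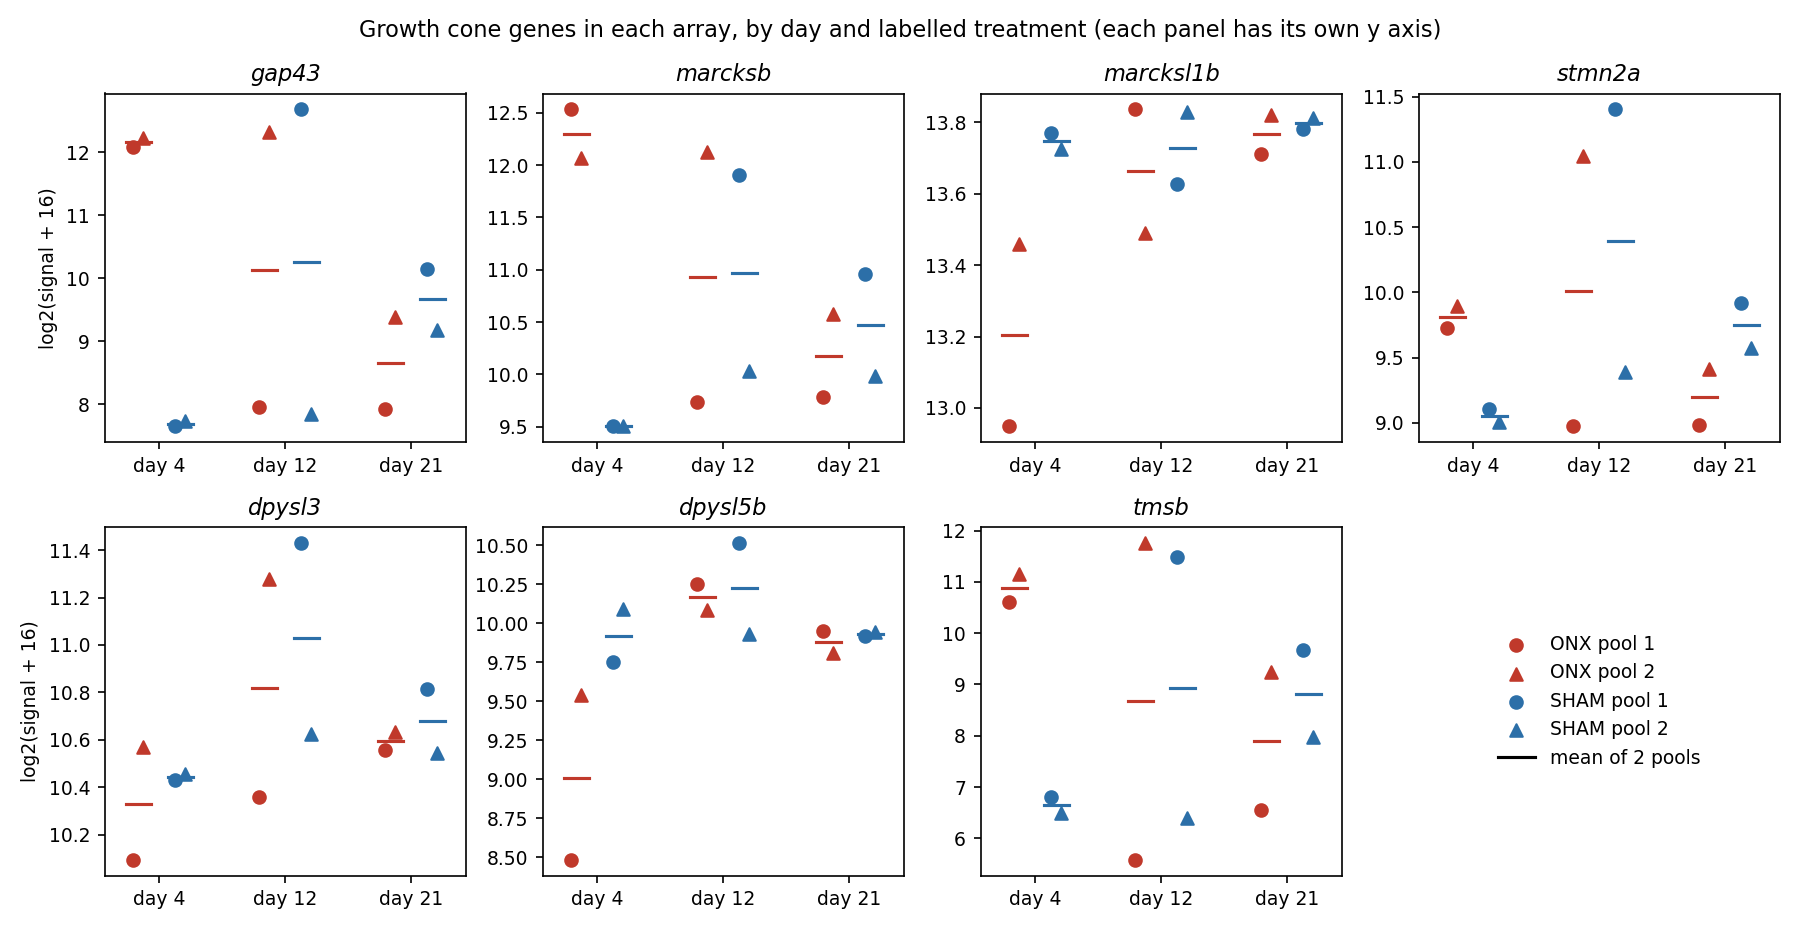
Log2(signal + 16) of the 7 growth cone genes on each array, by day, with ONX (red) left of SHAM (blue), pool 1 as circles and pool 2 as triangles, and a line at the mean of the 2 pools; each panel has its own axis. At day 4 the gap43 pools lie at 12.09 and 12.22 in ONX and at 7.65 and 7.73 in SHAM, and at day 12 each label holds 1 high and 1 low pool for gap43, marcksb, stmn2a and tmsb.

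The growth cone membrane gene gap43 encodes a major protein kinase C substrate of regrowing axons. It read 12.09 and 12.22 in the ONX pools of day 4, against 7.65 and 7.73 in the SHAM pools. At day 12 it read 7.95 and 12.32 in ONX pools, against 12.68 and 7.85 in SHAM pools. At day 21 it read 7.93 and 9.38 in ONX pools, against 10.15 and 9.18 in SHAM pools. Thus the day 4 groups were far apart and each pool was close to its partner, while at day 12 ONX pool 2 and SHAM pool 1 were both as high as the crushed eyes of day 4 and the other 2 pools were as low as the sham eyes of day 4. The day 4 difference was 4.47 ± 1.50, rank 3 by size of all 9301 probe sets, with a limma adjusted p of 0.0636. The limma adjusted p was 0.0312 to 0.0343 with any 1 of the 4 day 12 arrays left out, 0.102 to 0.224 with any 1 of the day 4 arrays left out and 0.0845 to 0.0884 with any 1 of the day 21 arrays left out. The difference was -0.13 ± 1.50 at day 12 and -1.01 ± 1.50 at day 21 (limma adjusted p = 1.00 at both).

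The MARCKS gene marcksb, whose product binds actin and membrane phospholipids, showed a like pattern over the arrays. At day 4 it read 12.53 and 12.07 in ONX pools, against 9.50 and 9.50 in SHAM pools. At day 12 it read 9.74 and 12.12 in ONX pools, against 11.91 and 10.03 in SHAM pools. At day 21 the ONX pools were at 9.78 and 10.57 and the SHAM pools at 10.96 and 9.98. Here too ONX pool 2 and SHAM pool 1 were the high ones at days 12 and 21, and the labelled groups overlapped on both days. At day 4 marcksb rose by 2.80 ± 0.75 (limma adjusted p = 0.0330), and the later differences were -0.04 ± 0.75 and -0.29 ± 0.75. The call at day 4 was lost without ONX day 4 pool 1 (2.57, limma adjusted p = 0.132), without SHAM day 4 pool 1 (0.165) or pool 2 (0.134), and without ONX day 21 pool 1 (0.0506) or pool 2 (0.0503).

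The related gene marcksl1b encodes a MARCKS-like protein. It read 12.95 and 13.46 in ONX pools of day 4, against 13.77 and 13.72 in SHAM pools. Both crushed pools were lower, and the lowest of all 12 arrays was the pool with oocyte transcripts. The difference was -0.54 ± 0.20 (limma adjusted p = 0.0851), and without that pool it was -0.29. Without ONX day 4 pool 2 it was -0.80, but the pool with oocyte transcripts is then the only crushed array of day 4. At days 12 and 21 all 8 arrays lay between 13.49 and 13.84 and the groups overlapped. The probe set is among the brightest on the array, with a mean above that of 99.2% of the 15502 probe sets that are not Affymetrix controls. Its range over all arrays was 0.89.

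Among the genes that act on microtubules, stmn2a encodes a neuronal stathmin that binds tubulin and is found at growth cones. At day 4 it read 9.73 and 9.90 in ONX pools, against 9.11 and 9.00 in SHAM pools. At day 12 it read 8.97 and 11.04 in ONX pools, against 11.40 and 9.39 in SHAM pools. At day 21 the ONX pools were at 8.98 and 9.41 and the SHAM pools at 9.92 and 9.57. Crushed pools were thus the higher ones at day 4 and the lower ones at day 21, and its 2 highest arrays were both of day 12, one of each label. The differences were 0.76 ± 0.67, -0.39 ± 0.67 and -0.55 ± 0.67 at days 4, 12 and 21, and none passed (limma adjusted p = 0.432 at day 4 and 1.00 at the later days).

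The CRMP genes dpysl3 and dpysl5b encode cytosolic proteins that take part in axon guidance and outgrowth. For dpysl3 the day 4 values were 10.09 and 10.57 in ONX pools, against 10.43 and 10.45 in SHAM pools, and those of day 12 were 10.36 and 11.28 in ONX pools, against 11.43 and 10.63 in SHAM pools. Its groups overlapped on all 3 days, and at day 12 the same 2 pools as for gap43 were the high ones. The day 4 difference was -0.11 ± 0.33 (limma adjusted p = 0.830), and those of days 12 and 21 were -0.21 and -0.08. Its lowest array was the pool with oocyte transcripts, and without that pool the day 4 difference was 0.13. For dpysl5b the day 4 values were 8.48 and 9.54 in ONX pools, against 9.75 and 10.09 in SHAM pools. Both crushed pools were lower and the pool with oocyte transcripts was again the lowest array of all. The difference was -0.91 ± 0.32 (limma adjusted p = 0.0734), and -0.38 without that pool. Without ONX day 4 pool 2 it was -1.44, but here too the pool with oocyte transcripts is then the only crushed array of day 4. At the later days the 8 arrays lay between 9.81 and 10.52, and the differences were -0.06 at day 12 and -0.05 at day 21.

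The actin monomer binding gene tmsb, a beta thymosin, had the widest range of the 7 genes over the 12 arrays, 6.18. At day 4 it read 10.61 and 11.15 in ONX pools, against 6.81 and 6.50 in SHAM pools. At day 12 it read 5.58 and 11.76 in ONX pools, against 11.48 and 6.40 in SHAM pools. At day 21 it read 6.56 and 9.25 in ONX pools, against 9.67 and 7.97 in SHAM pools. On days 12 and 21 its high and low pools were those of gap43. The day 4 difference was 4.23 ± 1.92, rank 4 by size of all probe sets, and did not pass (limma adjusted p = 0.137). At days 12 and 21 the differences were -0.26 ± 1.92 and -0.92 ± 1.92.

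**Figure D2:**
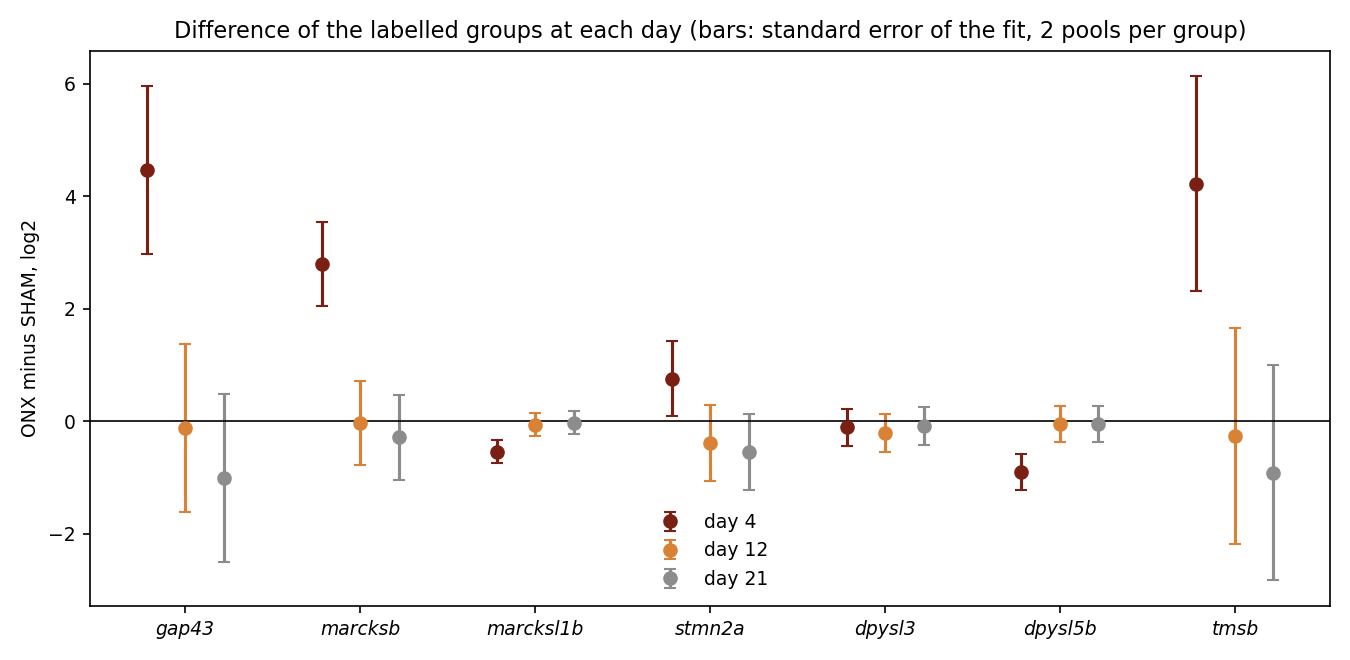
ONX minus SHAM of the 7 growth cone genes (log2) at day 4 (dark red), day 12 (orange) and day 21 (grey), with bars of 1 standard error of the limma fit, 2 pools per group. The day 4 points of gap43 (4.47), tmsb (4.23) and marcksb (2.80) lie above all others, and the error bars of gap43 (1.50) and tmsb (1.92) are the widest.

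No probe set passed at day 12 or at day 21 in limma (27 and 12 had an unadjusted p under 0.05), so that 0% of all probe sets and 0 of the 7 genes were called on those days. At day 12 the labelled groups overlapped for all 7 genes (with the pool 2 arrays of that day left out, 0 genes and 2 probe sets, or 0.0215%, passed in what is then 1 array against 1, with the spread taken from the other groups), where 7.29% of all probe sets had both ONX pools above and 7.48% both below. At day 21 stmn2a alone had both ONX pools below both SHAM pools, as did 11.6% of all probe sets, while 12.1% had both above.

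For tmsb and gap43, pools of one label disagreed at day 12 in opposite directions in ONX and SHAM eyes, by a measure among the largest on the array. For each probe set the gap between pool 2 and pool 1 was taken in ONX and in SHAM eyes, and the SHAM gap subtracted from the ONX gap. The resulting value is small where the gaps are alike in direction and size. It is large where they run in opposite directions, but also where a single label has a wide gap. By the absolute size of this value tmsb had rank 1 of 9301 probe sets (11.3), gap43 rank 2 (9.20), marcksb rank 33 (4.27), stmn2a rank 41 (4.09) and dpysl3 rank 332 (1.73), where the median over all probe sets was 0.416. The ranks of marcksl1b and dpysl5b were 3582 and 4630. Taken by pool number, ONX minus SHAM of gap43 was -4.73 for pool 1 and 4.48 for pool 2. For tmsb these differences were -5.89 and 5.36, for marcksb -2.17 and 2.09, and for stmn2a -2.43 and 1.66. At day 21 the gaps of these genes ran the same way but were smaller, and the value had rank 4 for tmsb (4.39), rank 37 for gap43 (2.42) and rank 92 for marcksb (1.77). At day 4 the value for gap43 was 0.06 (rank 8820), from gaps of 0.14 in ONX and 0.08 in SHAM eyes. Labels were kept as given. Whether libraries of day 12 carry each other's label was not tested, and the day 12 differences of gap43, tmsb, marcksb and stmn2a depend on it.

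**Figure D3:**
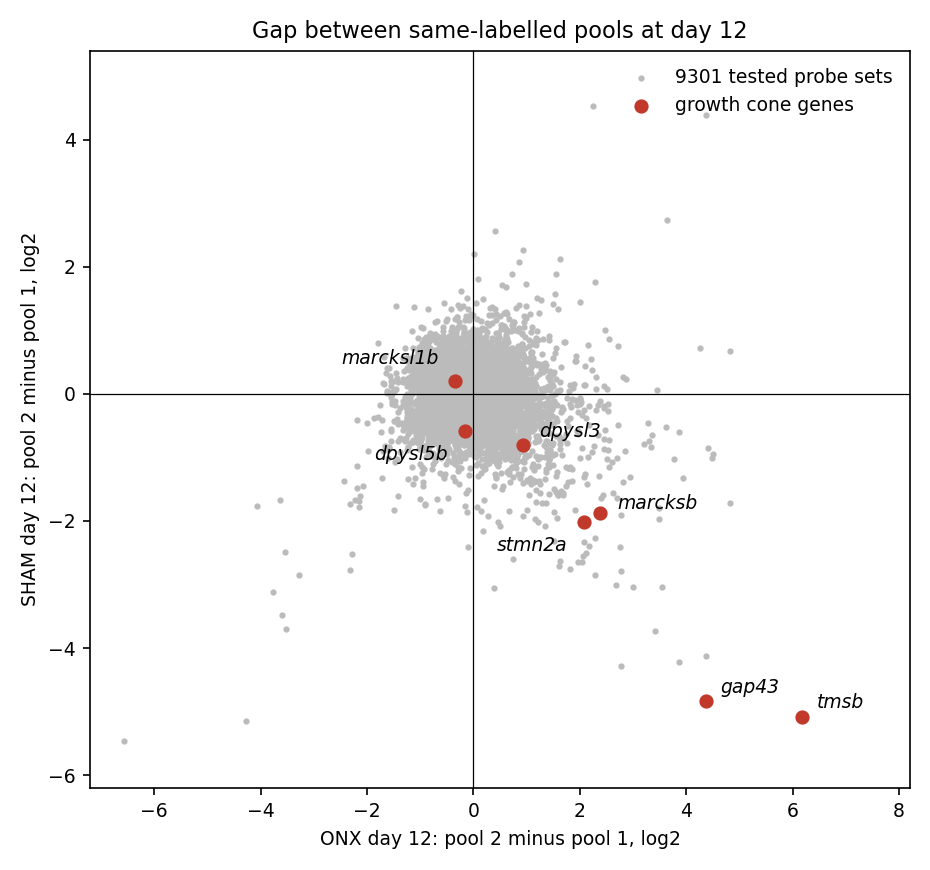
Pool 2 minus pool 1 at day 12 in ONX eyes (horizontal) and in SHAM eyes (vertical), both log2, for the 9301 tested probe sets (grey) and the 7 growth cone genes (red). The genes tmsb and gap43 lie at the lower right end, with ONX gaps of 6.18 and 4.37 and SHAM gaps of -5.08 and -4.83, while marcksl1b and dpysl5b lie within the central mass.

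The comparison was repeated without the 2 pool 1 arrays of day 12, and again without the 2 pool 2 arrays, which lets the day 12 spread drop out of the error and leaves the day 4 differences as they are. These arrays were left out after the levels of the same genes had been seen, so the tests that follow are a description. With either choice 4 of the 7 genes passed at day 4, all higher in ONX eyes, where 5.99% and 5.98% of all probe sets passed on the higher side. The limma adjusted p of gap43 was 0.00743 without the pool 1 arrays and 0.00732 without the pool 2 arrays, that of tmsb 0.0146 with both choices, and that of stmn2a 0.0477 and 0.0475. Without either pair of day 21 arrays, none of the 7 genes passed at day 4, and the limma adjusted p of marcksb was 0.0778. With the 4 arrays of day 4 alone 10 of 9301 probe sets passed, among them gap43 (limma adjusted p = 0.0128), tmsb (0.0256) and marcksb (0.0405). The 7 genes were chosen with earlier results of these data known, so this count too is a description.

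Averaged over the 3 days, gap43 was higher in ONX eyes by 1.11 ± 0.87, tmsb by 1.01 ± 1.11 and marcksb by 0.82 ± 0.43, and none of the 7 genes passed (limma adjusted p = 0.385 for marcksb and 0.540 for gap43). No probe set passed in this comparison, which is 0% (1390 had an unadjusted p under 0.05 in limma). In an exact two-sided permutation of the labels within days, the p-values were 0.463 for gap43 and tmsb, 0.278 for marcksb, 0.111 for marcksl1b, 0.185 for dpysl5b, 0.444 for dpysl3 and 0.870 for stmn2a. The design can give no p below 0.00926. Without the pool 1 arrays of day 12 the average for gap43 was 2.64 (limma adjusted p = 0.0469), where 7 probe sets or 0.0753% of all passed, and without the pool 2 arrays it was -0.42.

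Whether the crush effect differed between days was asked with an F-test in limma. It called 0% of all probe sets (1308 at an unadjusted p under 0.05), and the adjusted p was 0.296 for marcksb, 0.369 for gap43, 0.500 for dpysl5b, 0.524 for tmsb, 0.542 for marcksl1b, 0.715 for stmn2a and 0.989 for dpysl3. Leaving out arrays of day 12 was chosen after these genes were seen to disagree there, and it leaves 1 array per label on that day. An F-test without them is thus a description only. Without the pool 2 arrays the day 12 differences were -4.73 for gap43, -2.17 for marcksb, -2.43 for stmn2a and -5.89 for tmsb. Without the pool 1 arrays they were 4.48, 2.09, 1.66 and 5.36.

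The order of the 6 group means differed between the genes. For gap43 it was ONX day 4 (12.2 ± 0.10, SD, n = 2), SHAM day 12 (10.3 ± 3.42), ONX day 12 (10.1 ± 3.09), SHAM day 21 (9.67 ± 0.69), ONX day 21 (8.66 ± 1.02) and SHAM day 4 (7.69 ± 0.06). Of these neighbours only ONX day 21 and SHAM day 4 had pools that did not overlap. The same order held for marcksb, where ONX day 4 (12.3 ± 0.33) also lay above SHAM day 12 (11.0 ± 1.33) without overlap. For tmsb the order also began with ONX day 4 (10.9 ± 0.38) and ended with SHAM day 4 (6.65 ± 0.22), and no 2 neighbours were apart. In contrast stmn2a and dpysl3 had their highest mean in SHAM day 12 (10.4 ± 1.43 and 11.0 ± 0.57), and marcksl1b and dpysl5b their lowest in ONX day 4 (13.2 ± 0.36 and 9.01 ± 0.75), each without overlap with the next group above. The other neighbours without overlap were ONX and SHAM of day 21 for stmn2a, ONX day 21 and SHAM day 4 for dpysl3, and ONX day 12 and SHAM day 21 for dpysl5b.

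Over the 12 arrays, gap43, marcksb and tmsb had the same 4 highest arrays, namely both ONX pools of day 4, ONX day 12 pool 2 and SHAM day 12 pool 1. Pearson's r with gap43 was 0.972 for marcksb (rank 6 of 6983 other tested probe sets with 1 symbol), 0.969 for tmsb (rank 10), 0.850 for stmn2a (rank 113), 0.491 for dpysl3, -0.247 for dpysl5b and -0.674 for marcksl1b, where the median over all was 0.0016. Without the pool that held oocyte transcripts, r was 0.797 for dpysl3 and 0.138 for dpysl5b. The genes stmn2a and dpysl3 followed each other more closely (r = 0.845, and 0.961 without that pool) than dpysl3 followed gap43. These are descriptions over arrays that share their scaling and their groups.

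Of all other genes, the 8 nearest to gap43 by r over the 12 arrays were the beta tubulin gene tubb5 (0.984), the transcription factor genes sox11b (0.983), atf3 (0.980) and sox11a (0.969), the intermediate filament gene prph (0.979), the RNA cyclase gene rtca (0.973), the neuropeptide gene adcyap1b (0.972) and jpt1b (0.972). They were picked for following gap43 on these same arrays, so their levels are a description. In the ONX pools of day 12 tubb5 read 8.98 and 13.35, against 13.52 and 9.40 in the SHAM pools, and atf3 read 8.51 and 11.29, against 11.91 and 7.63. At day 4 the differences of the 8 genes lay between 1.11 (jpt1b) and 3.94 (atf3), a direction that their selection sets.

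**Figure D4:**
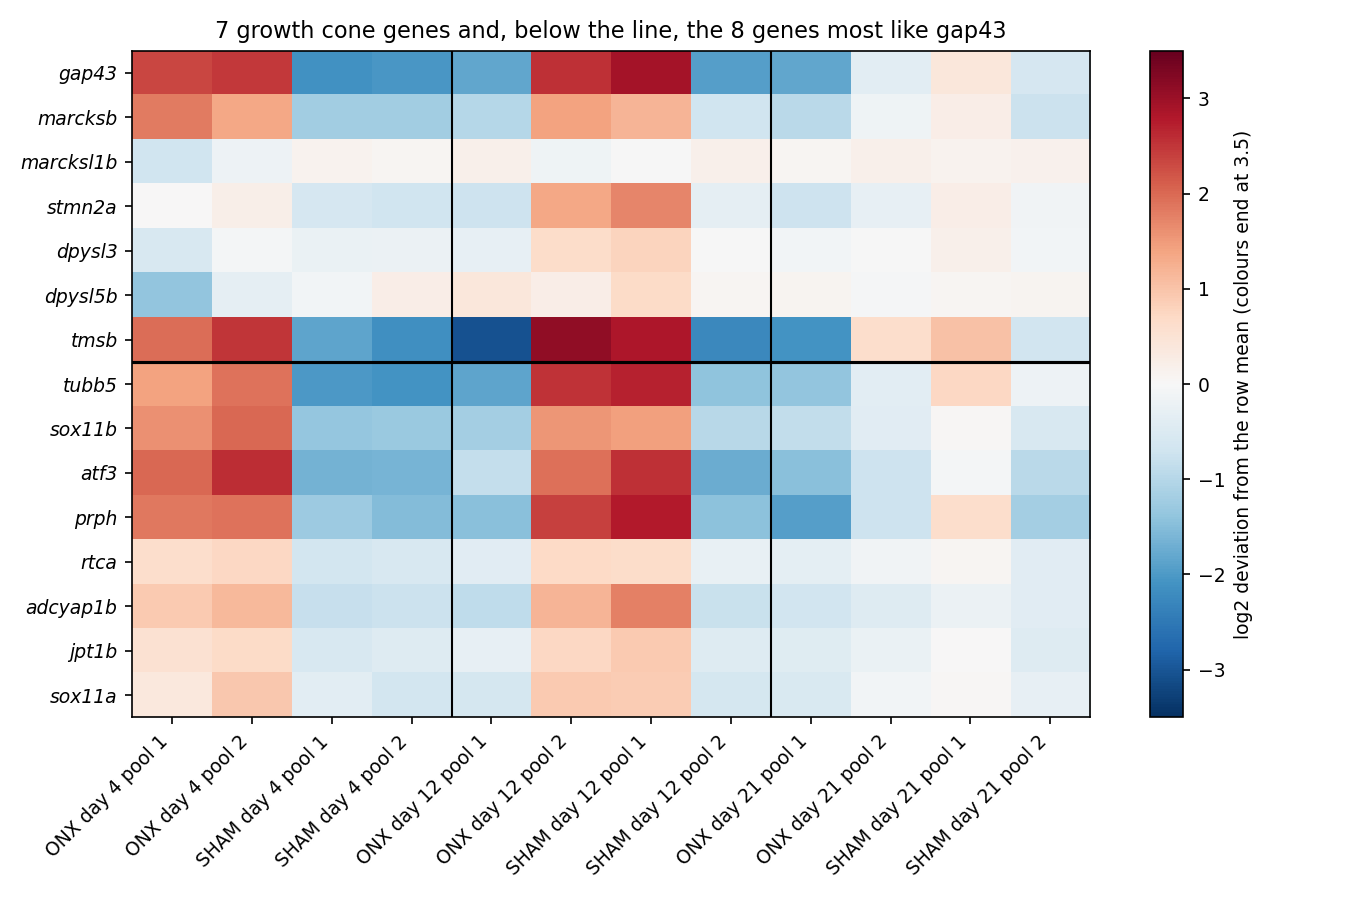
Deviation of each gene from its own mean over the 12 arrays (colour, log2, red above and blue below), for the 7 growth cone genes and, below the line, the 8 genes with the highest Pearson r to gap43. The columns ONX day 4 pools 1 and 2, ONX day 12 pool 2 and SHAM day 12 pool 1 are red for gap43, marcksb, tmsb and the 8 genes, while marcksl1b and dpysl5b have their lowest value in ONX day 4 pool 1.

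Family relatives of the 7 genes were on a list of 18, of which 8 were on the array and 7 tested. None rose or fell at day 4 in limma (2 had an unadjusted p under 0.05), and the list's median difference was 0.59, against 0.03 over the 5967 tested genes, of which 398 rose and 571 fell. The MARCKS gene marcksa read 8.74 and 9.91 in ONX pools of day 4, against 7.10 and 7.18 in SHAM pools (2.19 ± 0.96, limma adjusted p = 0.128). Its day 12 values of 6.83 and 9.60 in ONX pools, against 9.54 and 6.75 in SHAM pools, had the pattern of marcksb, while a second and dimmer marcksa probe set that was not tested stayed between 6.33 and 7.25. The thymosin gene tmsb1 read 12.90 and 13.27 in ONX pools of day 4, against 13.65 and 13.47 in SHAM pools (-0.47 ± 0.20, limma adjusted p = 0.125). With the deposited scaling the tested thymosins thus did not all lie on one side. Scaling to the hybridisation controls moved the median of all probe sets by 0.46, about the size of the tmsb1 difference. A further thymosin gene, tmsb5, read 12.79 in ONX day 4 pool 1 and 5.56 to 6.97 on the other 11 arrays, and it is named here after its values were seen. Without the pool 1 arrays of day 12, 3 of the 7 relatives passed at day 4 (441 of all 5967 genes rose), marcksa (0.0189), the stathmin gene stmn4 (1.50, 0.0125) and the thymosin gene tmsb2 (1.30, 0.0231).

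Actin regulators of the growth cone rose in small number. Of 61 listed genes 35 were tested at day 4, of which 4 rose and 0 fell, against 398 and 571 of all 5967 tested genes, with a median difference of 0.28. This median is smaller than the shift of 0.46 that scaling to the hybridisation controls gave the median of all probe sets. The small GTPase gene rac1a, which drives actin protrusion, read 11.56 and 11.46 in ONX pools, against 10.21 and 10.32 in SHAM pools, and rose by 1.25 ± 0.25 (limma adjusted p = 0.0176). Next to it cap1, a cyclase-associated actin binding protein, rose by 1.26 ± 0.31, the Arp complex subunit arpc4 by 1.15 ± 0.31 and the GTPase gene cdc42l by 1.12 ± 0.26. These genes had crushed pools on one side of the sham pools at day 4, and at day 12 none was called. Without the pool 1 arrays of day 12, which were left out after the data were seen, 6 of the 35 rose, against 441 of the 5967.

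Microtubule associated proteins had 1 rise and 1 fall among 13 tested of 35 listed genes (14 were on the array), against 398 and 571 of all 5967 tested genes. Their median was -0.21, which is smaller than the shift that scaling to the hybridisation controls gives every probe set. The plus end binding protein gene mapre1a read 11.01 and 10.48 in ONX pools of day 4, against 8.54 and 8.76 in SHAM pools, and rose by 2.09 ± 0.33 (limma adjusted p = 0.0176). The axonal transport kinesin gene kif1b fell by 0.74 on the log2 scale (SE 0.19, limma adjusted p = 0.0316).

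In contrast, of 21 tested genes of the growth cone surface and guidance list (28 of 50 were on the array), 7 fell and 0 rose at day 4, with a median of -0.73. Of all 5967 tested genes 571 fell and 398 rose. Scaling to the hybridisation controls moved the median of all probe sets up by 0.46, and 447 probe sets then passed as lower, against 1090 with the deposited scaling. How many genes of this list fell with that scaling was not counted. The list's largest difference by size lay on the higher side, thy1 at 1.70 ± 0.57, which did not pass (limma adjusted p = 0.0646). Without ONX day 4 pool 1 the thy1 difference was 0.74. The adhesion gene cntn1b differed by -1.42 ± 0.34, the proteolipid genes gpm6ba, gpm6bb and gpm6aa by -1.34, -0.99 and -0.98, the guidance receptor gene robo2 by -1.16 and the SNARE genes snap25a and snap25b by -1.24 and -1.11. Of these, robo2 is also on the ganglion cell list used here, as is thy1, and the snap25 genes serve synaptic release. Without ONX day 4 pool 1, no gene of the 4 lists and no other probe set passed at day 4 in limma (2628 had an unadjusted p under 0.05), and the medians were 0.89, 0.61, -0.09 and -0.33 for relatives, actin, microtubule and surface genes. Averaged over the 3 days no gene of the 4 lists passed.

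**Figure D5:**
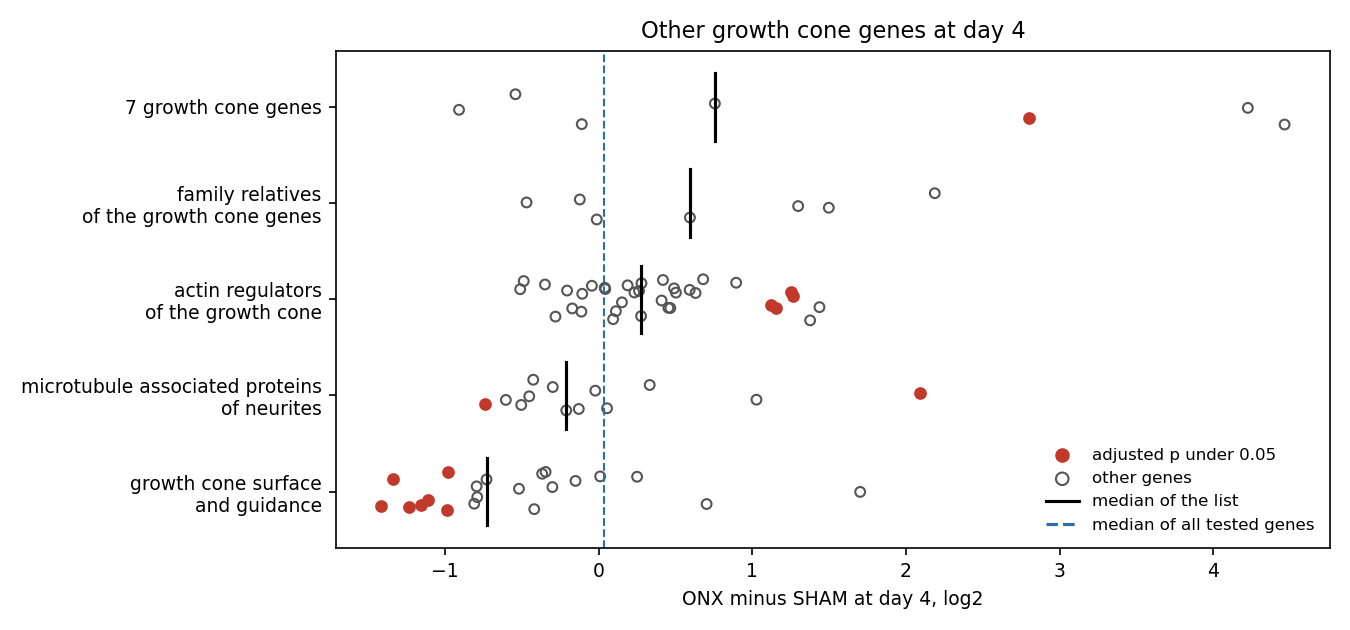
ONX minus SHAM at day 4 (log2) for the 7 growth cone genes and for the tested genes of 4 lists, 1 point per gene. Filled red points passed limma at an adjusted p under 0.05, open points did not, black lines are list medians (0.76 for the 7 genes, then 0.59, 0.28, -0.21 and -0.73) and the dashed line is the median of all tested genes (0.03); the vertical scatter within a list has no meaning.

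Markers of the cells an eye pool can hold differed in how they followed gap43. At day 4, where 398 of 5967 tested genes rose and 571 fell, 5 of 14 tested microglia and macrophage genes rose (15 of 19 on the array). Their summed signal was 54530 in ONX pool 1, the pool with oocyte transcripts, and 62871 in ONX pool 2, against 35621 to 38279 in SHAM pools. In ONX pool 1 the list's gene ctss2.1 read 13.75, against 10.80 in ONX pool 2 and 7.88 and 8.52 in SHAM pools. The list's median was 9.62 and 10.85 in ONX pools, against 8.58 and 9.03 in SHAM pools. At day 12 the summed signal was 32862 to 50903 in ONX pools and 31108 to 41314 in SHAM pools. The r of gap43 with this list's median was 0.861 over the 12 arrays. Cell cycle genes rose in 7 of 8 tested (14 of 17 on the array), with summed signals of 36598 in ONX day 4 pool 1, which held oocyte transcripts, and 10383 in ONX day 4 pool 2, against 2668 to 2820 in SHAM pools. The filter used the mean over all 12 arrays, so some of these genes, such as ccnb1, were tested only through their high ONX pools of day 4. The count of cell cycle genes that rose is thus in part set by the filter. Rod and cone genes fell in 12 of 13 tested, with summed signals of 114355 to 133602 in ONX pools of day 4, against 252741 to 257510 in SHAM pools, and the r of gap43 with their median was -0.818. Of 6 tested retinal ganglion cell genes 5 fell at day 4 (8 of 17 on the array). The other, thy1, read 13.08 and 11.15 in ONX pools, against 10.43 and 10.40 in SHAM pools (limma adjusted p = 0.0646). The 13.08 was that of the pool with oocyte transcripts, and without that pool the thy1 difference was 0.74. The list's summed signal was 12151 in that pool, where thy1 gave the largest signal of the list. It was 7014 in ONX day 4 pool 2 and 11988 to 12496 in SHAM pools. The list's median was 7.98 and 8.30 in ONX pools, against 9.30 and 9.17 in SHAM pools. The r with this median was 0.883 for marcksl1b and 0.836 for dpysl5b, against -0.559 for gap43. For marcksl1b and dpysl5b, r was also 0.909 and 0.700 with the lens median and 0.878 and 0.651 with the rod and cone median. With the cell cycle median it was -0.929 and -0.812, and with the oocyte median -0.835 and -0.813. Both genes read lowest in the pool with oocyte transcripts. Without that pool the r between these genes was 0.095, against 0.776 with it. Their r with the list medians was not computed without that pool. Lens genes fell in 2 of 4 tested and eye muscle genes in 3 of 11, and the r of gap43 was 0.254 with the eye muscle median and 0.308 with the oocyte median. The part of each cell type in the levels of the 7 genes was not tested.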

How the data were processed

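Total RNA of pooled whole eyes was hybridised to Affymetrix zebrafish arrays. The table deposited by the authors gives the intensity of every probe set on every array as a MAS5 signal, per the submitters' processing notes; its version is not given in the sources used here. All arrays had the same trimmed mean in the table. The table held 15617 probe sets on 12 arrays, of which 115 Affymetrix controls were set aside. Gene names came from the platform annotation, and 10795 probe sets had 1 symbol, 135 several and 4572 none.

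After log2(signal + 16), the upper 60% of probe sets by mean over all 12 arrays was kept (9301, mean signal at least 135) and not normalized further. The limma package (3.58.1, R 4.3.3) fitted 1 mean per group with a variance trend (6 residual and 4.23 prior degrees of freedom); the threshold was a Benjamini-Hochberg adjusted p of 0.05. Python 3.11.15 with pandas 2.3.3 and matplotlib 3.10.9 made counts and figures. The fit was tested on simulated data. The spread behind each p is that between pools, and precision is limited by how few arrays there are.

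Members and lists were chosen with earlier results of these data known. All members were named, of each list the called genes at day 4 and in the average (up to 6, by size) or else the 2 with the smallest p, and the 8 genes most like gap43. The genes stmn4, tmsb2, tmsb5, gpm6aa and thy1 were named outside this rule after their values were seen. A gene counted once in a list, by its brightest probe set. Same-numbered pools were not paired in the tests, since their deviations from group means correlated at 0.124, -0.121 and -0.03 at days 4, 12 and 21 and the labels do not say what a number marks. Alternatives were other offsets, filters and scalings, array weights, a pool number block, single arrays left out, arrays of one day alone and, added after the data were seen, both arrays of one pool number left out at day 12 or 21. Sequences and genome positions were not used here.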

Additional observations from a re-analysis of the deposited data

Results flagged for a closer look

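The stathmin gene stmn2a was the one member whose pools lay on opposite sides on different days. At day 4 the ONX pools read 9.73 and 9.90, each above the SHAM pools at 9.11 and 9.00, a log2 difference of 0.76, and at day 21 both ONX pools (8.98 and 9.41) lay below both SHAM pools (9.92 and 9.57), a difference of -0.55. Of all tested probe sets, 24.1% had both ONX pools above both SHAM pools at day 4, and 11.6% had both below at day 21. The share that did so on both days was not counted. The contrast of day 4 with day 21 was not tested by itself. In limma's F-test over the 3 days the adjusted p of stmn2a was 0.715. Groups of 2 pools are too small to test for a single pool far from the others.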

How the results depend on the processing

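At day 4 the differences of gap43, marcksb, marcksl1b, stmn2a, dpysl5b and tmsb kept their direction under all 27 alternatives, between 4.18 and 4.93 for gap43, 2.57 and 3.28 for marcksb and 3.70 and 4.68 for tmsb. The call of marcksb was lost in 11 of them. The cause was not tested for the calls and signs below, beyond the arrays that a setting leaves out. With limma, 1582 probe sets and 1 growth cone gene passed at day 4. Scaled to the hybridisation controls 2384 passed (1937 higher, 447 lower) and 2 growth cone genes. With the poly-A controls 0 passed (2101 at an unadjusted p under 0.05), with array weights 0 (2148) and with no filter on low signals 0 growth cone genes. These scalings moved the median of all probe sets at day 4 by 0.46 (hybridisation), 0.38 (poly-A) and -0.16 (array medians).

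With pool numbers entered as a replicate block within each day, 0 probe sets and 0 growth cone genes passed at day 4 (3180 at an unadjusted p under 0.05, limma adjusted p of marcksb 0.0724). Same-numbered pools deviated together at 0.124, -0.121 and -0.03 on the 3 days, which does not show that the numbers pair the samples. The arrays of day 4 alone gave 10 of 9301 probe sets and 3 of the 7 growth cone genes, a description as said above.

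Leaving out single arrays gave 0 to 4008 probe sets and 0 to 3 growth cone genes at day 4. It was 0 probe sets without ONX day 4 pool 1, SHAM day 4 pool 1 or SHAM day 4 pool 2, 4008 without ONX day 4 pool 2 and 917 to 998 without an array of day 21. Without ONX day 4 pool 2, marcksl1b was at -0.80 and dpysl5b at -1.44. The pool with oocyte transcripts is then the only crushed array of day 4. For days 12 and 21 the range was 0 to 0 for both counts, for the average 0 to 1374 probe sets and 0 to 1 genes, and for the F-test 0 to 1419 and 0 to 1; the upper values came without ONX day 4 pool 2. By single arrays left out, gap43 at day 12 ranged between -2.54 and 2.29, marcksb between -1.23 and 1.15, marcksl1b between -0.24 and 0.11, stmn2a between -1.42 and 0.65, dpysl3 between -0.67 and 0.25, dpysl5b between -0.35 and 0.24 and tmsb between -3.35 and 2.82. At day 21 marcksb ranged between -0.78 and 0.20, marcksl1b between -0.086 and 0.025, dpysl3 between -0.22 and 0.054, dpysl5b between -0.12 and 0.022 and tmsb between -2.27 and 0.43. For the average, stmn2a ranged between -0.40 and 0.29, dpysl3 between -0.29 and 0.019 and tmsb between -0.015 and 2.04, and at day 4 dpysl3 between -0.35 and 0.13.

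Leaving out a pool number at day 12 or 21, chosen after the data were seen, leaves 1 array against 1 on that day, assumed to vary like the other groups. Growth cone genes had by then been seen to disagree by pool number at day 12. The counts below, those of the F-test included, are thus a description only. For the day 4 counts without a pool number of day 12, the shares of all probe sets that passed as higher are given above. Without the pool 1 arrays of day 12 the day 12 differences turned positive, at 4.48 for gap43, 2.09 for marcksb, 1.66 for stmn2a, 0.65 for dpysl3, 0.15 for dpysl5b and 5.36 for tmsb. Then 4 growth cone genes passed at day 4, 7 probe sets and 1 growth cone gene in the average, and the averages of stmn2a and dpysl3 were 0.62 and 0.15. Without the pool 2 arrays of day 12, 4 growth cone genes passed at day 4, 2 probe sets at day 12, and 142 probe sets with 4 growth cone genes in the F-test. The day 12 difference of marcksl1b was then 0.21, and the averages of gap43 and tmsb were -0.42 and -0.86. Without the pool 1 arrays of day 21, 0 probe sets and 0 growth cone genes passed at day 4 (2659 at an unadjusted p under 0.05). The day 21 differences were then 0.20 for gap43, 0.60 for marcksb, 0.0083 for marcksl1b, 0.092 for dpysl3 and 1.28 for tmsb, and the average of stmn2a was 0.070. Without the pool 2 arrays of day 21 the counts at day 4 were 0 and 0 (2660), and dpysl5b was at 0.036 at day 21.

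Scaled to the hybridisation controls dpysl3 was at 0.36 at day 4, and the averages of stmn2a and dpysl3 were 0.076 and 0.0025, with exact permutation p of 0.852 and 1.00. Scaled to the poly-A controls dpysl3 was at 0.28 at day 4, and at day 21 marcksl1b was at 0.082, dpysl3 at 0.029 and dpysl5b at 0.062, with averages of 0.086 for stmn2a and 0.012 for dpysl3 (exact permutation p = 0.907 and 0.944). Quantile normalization put marcksl1b at 0.0040 at day 21. With no filter 1 probe set passed in the average (1797 at an unadjusted p under 0.05). With 2 pools per group, small differences were not detectable for genes whose pools of one label disagree.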
